A study of Mus musculus with 18 samples.

Results

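The tRNA-Asp-GTC family comprises the cytosolic tRNAs that carry aspartate and have the anticodon GTC. All entries of the deposited table whose names start with tRNA-Asp-GTC were taken, both those of mature tRNAs and those of precursors (pre-tRNAs), without the antisense ones. This gave 64 of 3574 entries. The 16 mature entries are the 4 kinds of read of 4 mature species, and the 48 precursor entries are the 3 kinds of read of 16 gene loci. Species are isodecoders, which share the anticodon and differ elsewhere in the sequence, and loci are the gene copies from which one species is made: tRNA-Asp-GTC-1 has 13 loci (1-1 to 1-13) and the other 3 species have 1 locus each. The family was chosen by its share of the mature and of the precursor reads, which was large and varied between mice. These shares are therefore described here and not tested, and tests were run on the make-up of the family, which the choice did not use.

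tRNA-Asp decodes both aspartate codons. Its genes have no intron and are transcribed by RNA polymerase III from promoter elements that lie within the gene, after which the 5′ leader and the 3′ trailer are cut off and the CCA end is added. The wobble guanosine of the anticodon can be replaced by queuosine, as in tRNA-Asn, tRNA-His and tRNA-Tyr, and mammals add a mannose to this base in tRNA-Asp. tRNA-Asp-GTC is also a known target of the cytosine methyltransferase DNMT2, together with tRNA-Gly-GCC and tRNA-Val-AAC.

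RNA came from the hippocampi of 18 male mice, 1 library per mouse. The WT mice were of the B6SJL background, and the 5xFAD mice are a transgenic model of Alzheimer's disease whose transgenes are driven by the neuronal Thy1 promoter. At 6 months of age all mice received, in CA1 and the dentate gyrus of both sides, a neuron-targeted rAAV2/8 that expresses GFP from the RSV promoter and, from the H1 promoter, either shCT, a scrambled control shRNA, or shRTP801, which targets RTP801, and tissue was taken 4 weeks later. Among WT mice 5 received shCT and 4 received shRTP801, and among 5xFAD mice these numbers were 3 and 6. The RTP801 mRNA lies outside the 60 to 100 nt gel window, so the knockdown was not checked here. In Hydro-tRNA-seq, the RNA is broken by alkaline hydrolysis before it is sequenced, so most reads cover only a piece of a tRNA. In bulk tissue, fewer cells of a type and less RNA per cell cannot be told apart.

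Each library held between 18126739 and 34489066 reads, of which 9850676 to 20292469 lay on mature tRNAs and 47875 to 318628 on precursors. In 3 libraries, those of WT shCT mouse 5, WT shRTP801 mouse 4 and 5xFAD shRTP801 mouse 7, mature tRNAs took up 98.0% to 98.7% of the reads, against 31.9% to 85.8% in the other 15. These 3 libraries had at most 0.435% of reads on mitochondrial tRNAs, and the others at least 8.59%. For several results the value without them stands beside that of all mice. Of the 8 neuronal microRNA genes looked for, 5 were listed, with 0 to 46 reads per library, and of 10 genes of blood, immune cells, liver and muscle only Mir155 was listed, with 0 to 9 reads. tRNA-Arg-TCT-4, the nervous system tRNA, had between 61 and 6619 reads in all 18 libraries. The Snord116 genes of neurons had reads in 15 libraries, and no Snord115 gene was listed. The part of other cell types in the tRNA reads was not tested.

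Mature tRNA-Asp-GTC was on average the second largest mature family, after tRNA-Gly-CCC, and it ranked first in 1 mouse. Its share of mature reads was 9.43% ± 5.53 (SD, n = 18), and the lowest and the highest mouse were 1.09% and 20.9%. In WT shCT mice the share was 1.19% in mouse 3, 8.81% in mouse 5, 6.98% in mouse 6, 1.09% in mouse 11 and 6.06% in mouse 15. Mice 3 and 11 thus lay well below the rest of their group. In WT shRTP801 mice the share was 7.12% in mouse 4, 15.5% in mouse 10, 20.9% in mouse 17 and 15.1% in mouse 21. In 5xFAD shCT mice it was 9.86% in mouse 1, 13.2% in mouse 16 and 15.2% in mouse 18. All 3 of these lay above all 5 WT shCT mice. As a share of all reads the groups overlapped, at 5.17% to 6.04% in 5xFAD shCT and 0.826% to 8.69% in WT shCT mice. How many other mature families were apart between these groups is not given here. The 5xFAD shRTP801 mice ran from 1.51% in mouse 14 to 13.8% in mouse 19, with a median of 7.57%, and spanned most of the range of the other groups.

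Among precursors, pre-tRNA-Asp-GTC was the largest family on average, with 20.4% ± 11.03 (SD, n = 18) of precursor reads, and it ranked first in 11 mice. In WT shCT mice the share was 3.41% in mouse 3, 10.7% in mouse 5, 22.8% in mouse 6, 2.19% in mouse 11 and 16.6% in mouse 15. Mice 3 and 11 were again the lowest of the group. In WT shRTP801 mice the share was 9.38% in mouse 4, 32.6% in mouse 10, 37.5% in mouse 17 and 33.02% in mouse 21. In 5xFAD shCT mice it was 22.4% in mouse 1, 28.4% in mouse 16 and 24.97% in mouse 18, a range that WT shCT mouse 6 entered. The 5xFAD shRTP801 mice ran from 7.16% to 36.5%, with a median of 18.7%. The Wilson 95% interval of a single library was at most 0.815 percentage points wide, which covers counting error only.

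The mature and the precursor share went together across the mice. On the log2 scale Pearson's r was 0.91 and Spearman's rho 0.85 over all 18 mice, r was 0.96 over the 15 libraries with at most 90% mature reads, and r was 0.79 without WT shCT mice 3 and 11, which lay farthest from the median. Both shares come from the same libraries, and the family was chosen for them, so no test was made. The family had 13.4 ± 3.50 precursor reads per 1000 mature reads (SD, n = 18), against 5.72 ± 3.56 for all other tRNAs together. Precursor reads counted at more than 1 locus enter both numbers at each locus. The ratio of these 2 numbers was above 1 in every mouse and ran from 1.24 to 5.05, with its 3 lowest values, 1.24 to 1.37, in the 3 libraries with over 90% mature reads. By group, the family had 12.7 ± 2.02 precursor reads per 1000 mature reads in WT shCT (n = 5), 12.9 ± 2.66 in WT shRTP801 (n = 4), 9.58 ± 1.04 in 5xFAD shCT (n = 3) and 16.3 ± 3.77 in 5xFAD shRTP801 mice (SD, n = 6). The 5xFAD shCT mice, at 8.45 to 10.5, lay below all 6 5xFAD shRTP801 mice, at 11.6 to 22.6, which is again a description. For all other tRNAs together these groups had 3.24 to 5.67 and 3.55 to 16.5. The ratio of the family to all other tRNAs overlapped between them, at 1.85 to 2.64 and 1.37 to 5.05. Values of other single families by group are not given here.

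**Figure D1:**
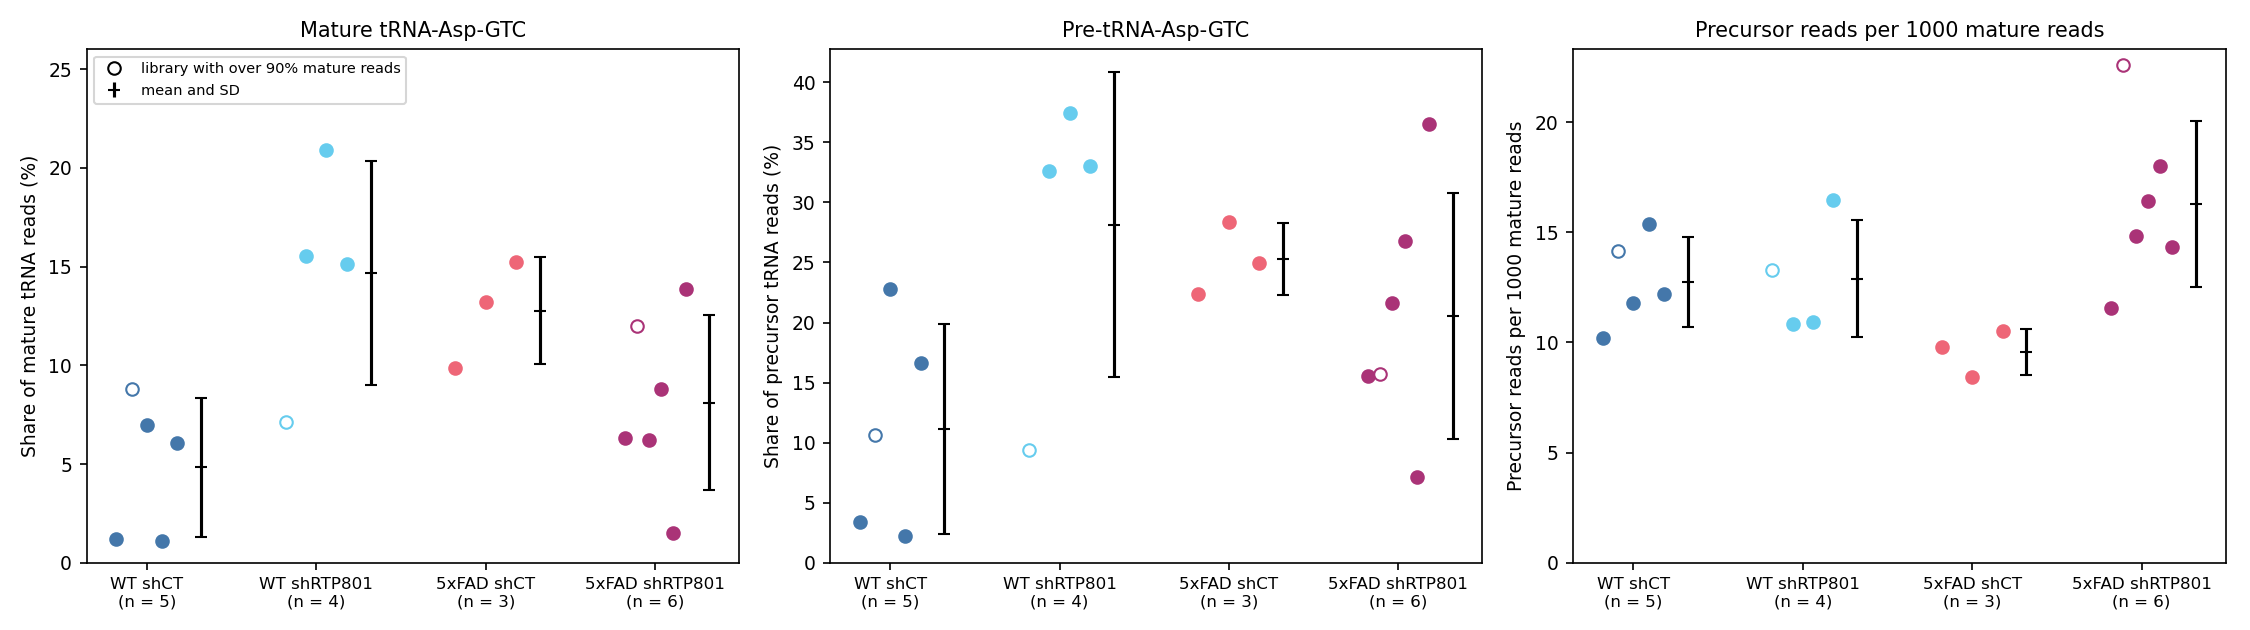
Share of mature tRNA-Asp-GTC among mature tRNA reads (left, %), of pre-tRNA-Asp-GTC among precursor reads (middle, %), and precursor reads per 1000 mature reads of the family (right), 1 point per mouse, with the group mean and SD in black and open points for the 3 libraries with over 90% mature reads. WT shCT mice 3 and 11 and 5xFAD shRTP801 mouse 14 had the lowest shares in both classes. The 3 5xFAD shCT mice had fewer precursor reads per 1000 mature reads than all 6 5xFAD shRTP801 mice. Taken as a ratio to all other tRNAs, which is not drawn, these groups overlapped.

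The mature families whose share varied most like that of tRNA-Asp-GTC were tRNA-Leu-TAG (Pearson's r of the log2 shares 0.91 over 18 mice), tRNA-His-GTG (0.87) and tRNA-Leu-AAG (0.84). It was compared with 48 other families, each holding 0.001% of mature reads or more on average. Among 47 other precursor families the most similar were tRNA-Leu-TAG (0.81), tRNA-Ser-AGA (0.77) and tRNA-SeC-TCA (0.69). tRNA-Leu-TAG led in both classes. In the 15 libraries with at most 90% mature reads, r was 0.93 for mature and 0.96 for precursor tRNA-Leu-TAG, and tRNA-SeC-TCA, at 0.90, came before tRNA-Ser-AGA, at 0.77. Of the other tRNAs that can carry queuosine, mature tRNA-Asn-GTT (r = -0.21) and tRNA-Tyr-GTA (-0.24) had lower values than tRNA-His-GTG, and so had the DNMT2 targets tRNA-Gly-GCC (-0.08) and tRNA-Val-AAC (-0.06). In the 15 libraries tRNA-Asn-GTT was at -0.58. As a precursor tRNA-His-GTG was at 0.26 over all mice, the 18th of 47 other families, and at 0.67 in the 15 libraries. The points share libraries, and shares within a class are not independent, so these values are descriptions.

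Mature reads were sorted by the authors' software into those that span the whole tRNA, those at its 5′ end, those at its 3′ end and others. In tRNA-Asp-GTC most reads lay at the 3′ end: 67.8% ± 16.5 (SD, n = 18). In WT shCT mice this share was 63.5% in mouse 3, 98.4% in mouse 5, 55.3% in mouse 6, 71.6% in mouse 11 and 55.8% in mouse 15. In WT shRTP801 mice it was 91.7% in mouse 4, 55.6% in mouse 10, 74.7% in mouse 17 and 70.7% in mouse 21. Mice 5 and 4 belong to the 3 libraries with over 90% mature reads, and in each of these 3 nearly all reads of the family were 3′ reads. In 5xFAD shCT mice the share was 67.4% in mouse 1, 65.2% in mouse 16 and 76.0% in mouse 18. In 5xFAD shRTP801 mice it ran from 30.4% in mouse 14 to 97.1% in mouse 7, with a median of 61.8%, so this group held both a very low and a very high value.

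The reads at the 5′ end made up 10.8% ± 5.48 (SD, n = 18) of the family and the other reads 17.6% ± 10.2. In 5xFAD shRTP801 mouse 14, whose 3′ share was the lowest, other reads reached 45.6%, the highest value of all mice. Reads over the whole tRNA made up 3.75% ± 2.42 (SD, n = 18), from 0.00997% in WT shCT mouse 5 to 8.82% in 5xFAD shRTP801 mouse 8. Without the 3 libraries with over 90% mature reads, whose values were 0.00997% to 0.239%, the share of whole reads was 4.48% ± 1.92 (SD, n = 15).

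**Figure D2:**
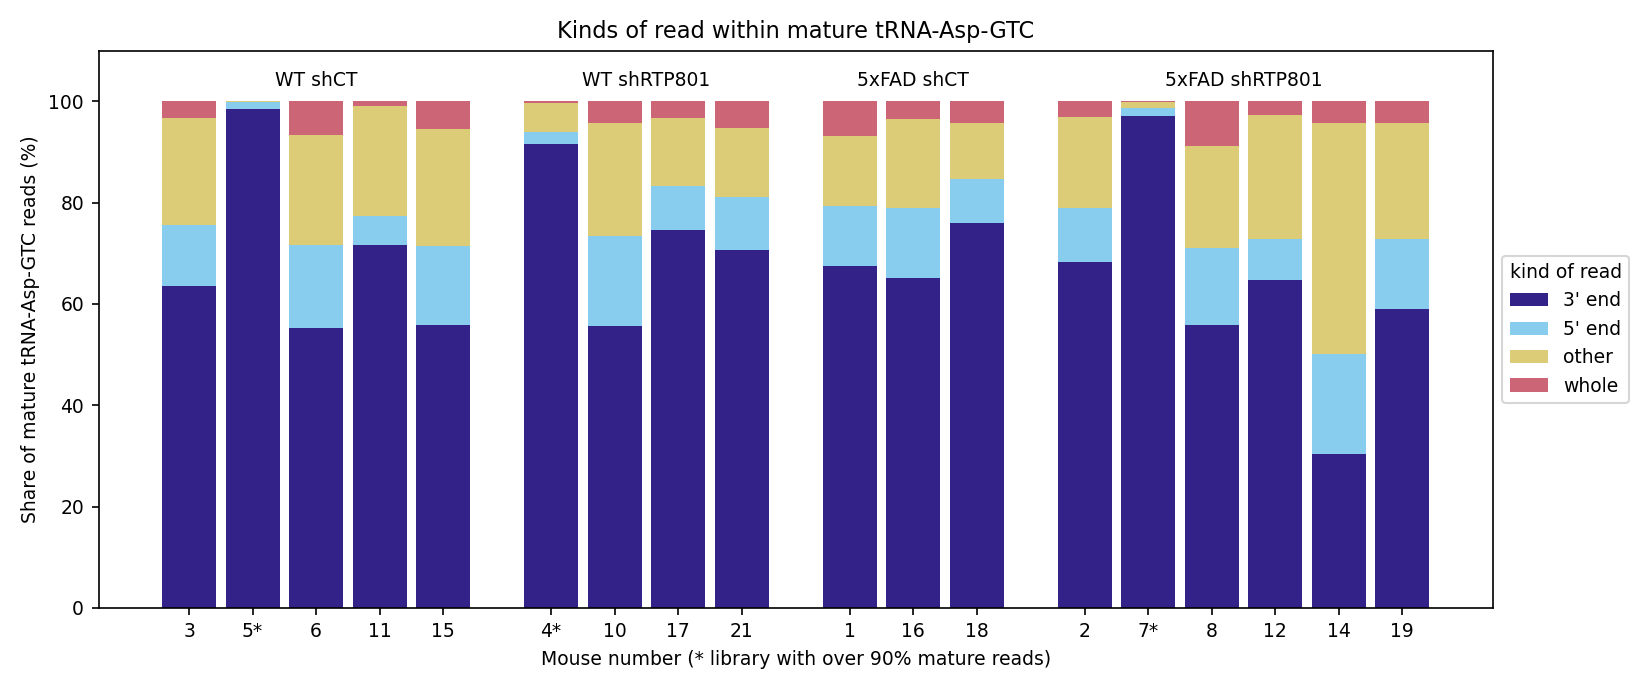
Make-up of the mature tRNA-Asp-GTC reads of each mouse (%), stacked by kind of read, with mice ordered by group and an asterisk at the 3 libraries with over 90% mature reads. Reads at the 3′ end take up most of each bar except that of 5xFAD shRTP801 mouse 14, and whole reads are nearly absent from the 3 marked bars.

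Whole reads were more frequent in tRNA-Asp-GTC than in the other mature tRNAs of the same mouse as a whole. In all other mature tRNAs together they made up 0.743% ± 0.553 (SD, n = 18). The odds of a whole read were higher in tRNA-Asp-GTC by 2.20 ± 0.755 on the log2 scale (SD, n = 18), in 17 of 18 mice (two-sided permutation test within mice, p = 1e-05, the smallest that 100000 resamples can give, and adjusted p = 4e-05 over 4 kinds of read). In the 15 libraries with at most 90% mature reads the difference was 2.46 and was positive in 15 of 15 (permutation test, adjusted p = 0.00028). By its mean share of whole reads, the family came second among 49 families with at least 100 mature reads in every library, where the median family had 0.0202%. tRNA-Asp-GTC held 29.9% ± 16.5 (SD, n = 18) of all whole mature tRNA reads, up to 60.1% in 1 mouse, and 9.36% ± 6.36 of all 3′ reads.

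For the other 3 kinds of read the answer depended on the comparison. Against all other mature tRNAs together, 3′ reads differed by -0.27 in log2 odds (adjusted p = 0.324, permutation test), 5′ reads by -0.23 (adjusted p = 0.324) and other reads by 0.17 (adjusted p = 0.522). Without the 3 libraries with over 90% mature reads, 3′ reads differed by -0.49 and were higher in tRNA-Asp-GTC in 3 of 15 mice (permutation test, adjusted p = 0.0483), and other reads were higher by 0.41 in 10 of 15 mice (adjusted p = 0.0418). Against the mean of 48 other families, in which each family counts the same, all 4 kinds differed: 3′ reads by -2.52, 5′ reads by 4.30, other reads by 2.35 and whole reads by 5.81 (permutation tests, adjusted p of 2e-05 to 6e-05). The difference in 5′ reads thus changed its sign with the weight given to large families. In the median family only 0.0202% of reads were whole and 0.481% were 5′ reads. Where a family had few such reads, its log odds depend on the 0.5 reads added, so the sizes of these differences are uncertain.

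The families that share a modification with tRNA-Asp-GTC were not alike in their reads. In tRNA-Asn-GTT 98.2% ± 0.705 of reads lay at the 3′ end, in tRNA-Tyr-GTA 92.3% ± 3.75, in tRNA-His-GTG 64.5% ± 8.71, in tRNA-Val-AAC 83.0% ± 7.66 and in tRNA-Gly-GCC 31.7% ± 13.3 (SD, n = 18 each). The 3′ share of tRNA-Asp-GTC was lower than that of tRNA-Asn-GTT in 18 of 18 mice (log2 odds -4.51), of tRNA-Tyr-GTA in 15 (-2.28) and of tRNA-Val-AAC in 15 (-0.99), and it was higher than that of tRNA-Gly-GCC in 18 of 18 (2.61). Each of these differences passed the permutation test within mice, with adjusted p of 2.5e-05 to 0.00914 over 20 comparisons. Against tRNA-His-GTG, the family closest in 3′ reads, the difference was 0.54 with an SD of 1.43 (permutation test, adjusted p = 0.191). Whole reads were more frequent in tRNA-Asp-GTC than in tRNA-Asn-GTT, tRNA-Tyr-GTA, tRNA-Gly-GCC and tRNA-Val-AAC, by 11.2, 7.88, 1.56 and 3.09 in log2 odds, in at least 17 of 18 mice each (permutation tests, adjusted p of at most 4e-05). Since tRNA-Tyr-GTA had 0 whole reads in every library, its value depends on the 0.5 reads added. Against tRNA-His-GTG the difference in whole reads was 0.54 over all mice (adjusted p = 0.249, permutation test) and 1.21 in the 15 libraries with at most 90% mature reads (adjusted p = 0.00076).

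Mature species were very unequal. tRNA-Asp-GTC-1 made up 82.9% ± 3.99 (SD, n = 18) of the mature reads of the family, tRNA-Asp-GTC-2 15.9% ± 3.78 and tRNA-Asp-GTC-4 1.18% ± 0.387. tRNA-Asp-GTC-3 had only 133 to 1438 reads per library. In the 3 libraries with over 90% mature reads, tRNA-Asp-GTC-1 was at 86.4% to 90.6% and tRNA-Asp-GTC-4 at 0.418% to 0.626%, the latter below the 1.03% to 2.06% of the other 15. 5xFAD shRTP801 mouse 14 had the lowest share of tRNA-Asp-GTC-1, 73.3%, and the highest of tRNA-Asp-GTC-2, 25.6%. How reads that match several species were counted is not given in the sources used here, so values of all species, the rare ones included, are uncertain.

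As counted, each species had its own mix of reads. This mix depends on how reads that match several species were assigned, which is not known here. tRNA-Asp-GTC-1 was read mainly at the 3′ end (73.5% ± 14.8 of its reads, SD, n = 18) and tRNA-Asp-GTC-2 less so (44.3% ± 21.5), with 35.5% ± 16.8 other reads. In contrast, tRNA-Asp-GTC-4 was read mainly at the 5′ end (87.1% ± 3.68), and so was tRNA-Asp-GTC-3 (96.0% ± 2.57). Whole reads made up 3.76% ± 2.41 of tRNA-Asp-GTC-1 and 4.10% ± 2.78 of tRNA-Asp-GTC-2. For tRNA-Asp-GTC-4 there were 8 whole reads among 272380 reads of all mice. tRNA-Asp-GTC-3 had 0 whole and 0 3′ reads among 11508, which allows a share of up to 0.0261%, counting error only. The balance of the species thus differed between kinds of read. Among 3′ reads there were 9.85 ± 1.48 reads of tRNA-Asp-GTC-1 for each read of tRNA-Asp-GTC-2 (SD, n = 18), among whole reads 4.49 ± 0.773, among 5′ reads 2.39 ± 0.921 and among other reads 2.19 ± 1.28. tRNA-Asp-GTC-4, with 0.104% ± 0.0417 of 3′ reads, accounted for 12.4% ± 6.41 of 5′ reads.

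**Figure D3:**
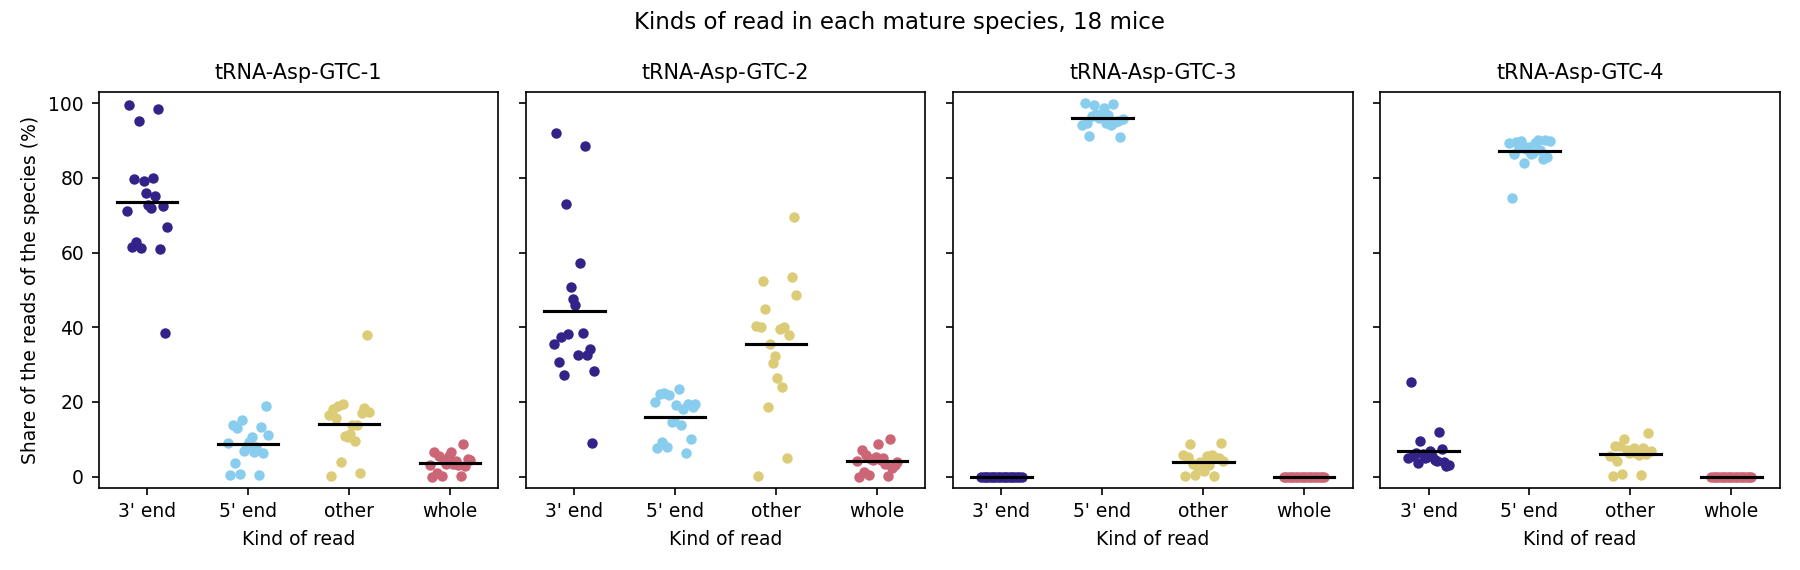
Kinds of read in the 4 mature species, as a share of the reads of the species (%), with 1 point per mouse (n = 18) and a black line at the mean. 3′ reads lead in species 1 and 5′ reads in species 3 and 4, whereas species 2 has 44.3% 3′ and 35.5% other reads on average.

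Precursor reads came from all 16 loci, again unequally. Mature reads of tRNA-Asp-GTC-1 cannot be assigned to one of its 13 loci, which make the same mature tRNA, but precursor reads carry flanking sequence. Locus 1-11 was the largest in 18 of 18 mice, with 19.7% ± 2.12 (SD, n = 18) of precursor reads of the family and a range of 15.9% to 22.8%. Locus 1-7 followed with 12.0% ± 2.86 and locus 1-2 with 8.09% ± 1.43, and 10 more loci of tRNA-Asp-GTC-1 had mean shares between 4.39% and 7.65%. Loci 1-3 and 1-4 held the same number of reads as each other in every library, so the same reads were counted at both. Family totals and locus shares include them at each. Over all families, 13 loci repeated the reads of another locus, locus 1-4 among them. With all of these repeats counted once, the family's mean share of precursor reads moved by at most 0.205 percentage points in any group. The move with only loci 1-3 and 1-4 counted once is not given here. Locus 2-1 had 2.32% ± 0.741. Loci 3-1 and 4-1 were rarely read, with 90 and 212 reads in all 18 libraries together. Together the loci of tRNA-Asp-GTC-1 gave 97.6% ± 0.769 of the precursor reads, against its 82.9% of mature reads, and tRNA-Asp-GTC-2 gave 2.32% against 15.9%. Per 1000 mature reads of the same species there were 15.8 ± 4.13 precursor reads for tRNA-Asp-GTC-1 and 2.26 ± 1.94 for tRNA-Asp-GTC-2 (SD, n = 18). These values sum over 13 loci and 1 locus, with loci 1-3 and 1-4 both counted. How reads that match several loci were counted is not given in the sources used here. The effect of this on the values was not tested.

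**Figure D4:**
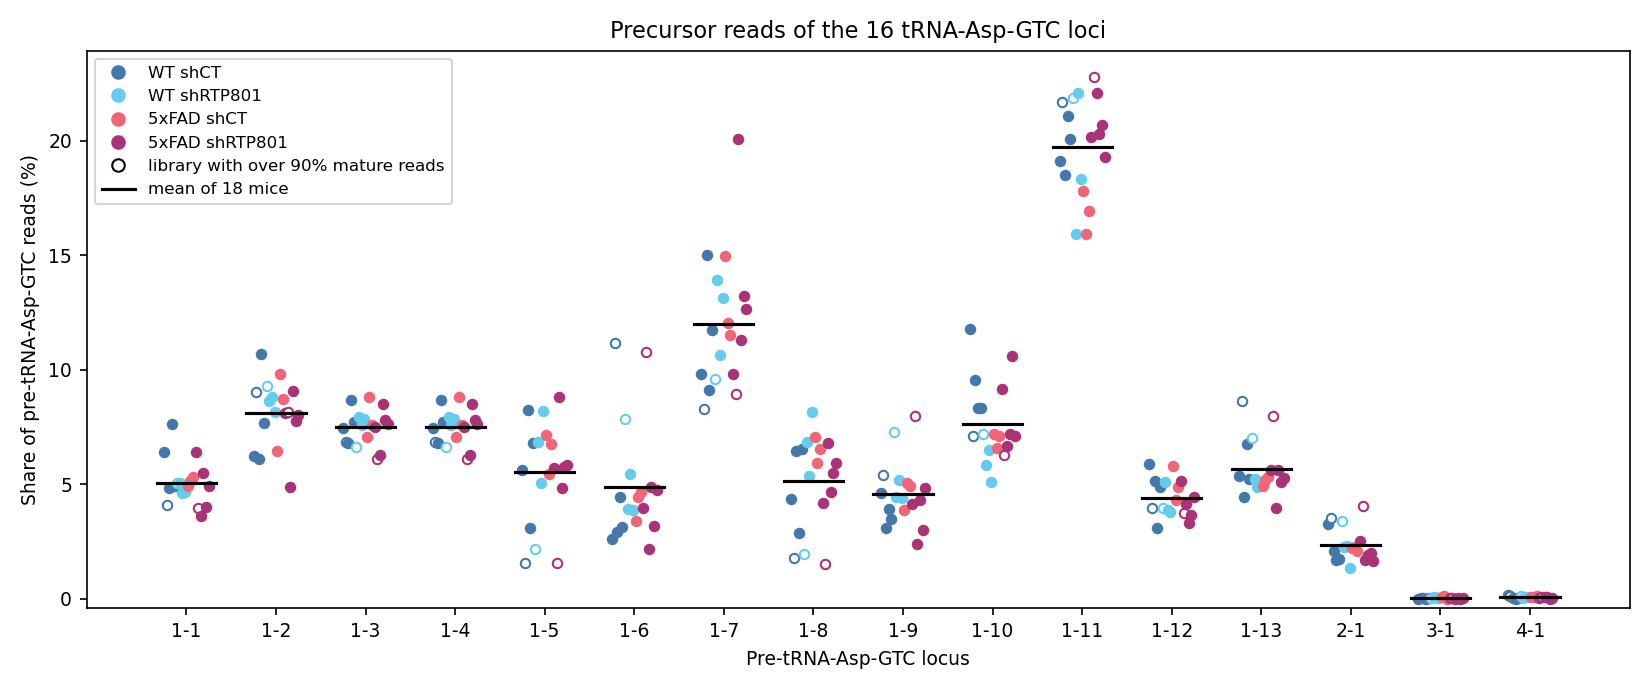
Share of each of the 16 loci in the precursor reads of the family (%), 1 point per mouse, coloured by group, with open points for the 3 libraries with over 90% mature reads and a black line at the mean of 18 mice. Locus 1-11 lies at 15.9% to 22.8% and loci 3-1 and 4-1 near 0. The open points are the highest of loci 1-6, 1-9, 1-13 and 2-1 and the lowest of loci 1-5 and 1-8.

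The 3 libraries with over 90% mature reads also stood out by locus. Locus 1-6 had 7.87% to 11.2% in them and 2.18% to 5.44% in the other 15, locus 1-5 had 1.55% to 2.16% against 3.11% to 8.82%, and locus 1-8 had 1.53% to 1.95% against 2.86% to 8.15%. At none of these 3 loci did the ranges overlap. Locus 1-9 had 5.39% to 7.97% against 2.41% to 5.20%, and locus 1-13 had 7.01% to 8.65% against 3.97% to 6.74%. Locus 2-1 had 3.38% to 4.03% against 1.33% to 3.24%. These ranges did not overlap either, while those of the other loci did.

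Nearly all precursor reads were partial. With loci 1-3 and 1-4 counted once, reads over a whole precursor numbered 0 to 121 per library and 711 in all, and reads of cut-off trailers were 0 at every locus in every mouse. The whole precursor reads were spread unevenly over the loci: locus 1-8 had 141, loci 1-7 and 1-13 had 99 each and locus 1-2 had 92, whereas locus 1-11, the largest, had 4. Locus 1-10 had 0 whole reads among 22231 precursor reads, which allows a share of up to 0.0135%, counting error only. With every locus counted as listed, tRNA-Asp-GTC gave 16.9% of all whole precursor reads of the table. In the annotation of RefSeq for GRCm38.p6, which pairs no gene with these loci, 12 of 16 tRNA-Asp-GTC genes have another tRNA gene as the nearest entry on at least 1 side, and 4 of them lie between a tRNA-Gly-TCC and a tRNA-Leu-CAG gene.

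A relation between locus shares and whole mature reads was noticed in these data and is described here for the 14 loci with at least 1% of the family, in the 15 libraries with at most 90% mature reads. No p is given, since the same mice prompted the comparison, and locus shares sum to 100%, so a rise at some loci lowers the others. Mice with a higher share of whole reads in mature tRNA-Asp-GTC had higher shares of locus 1-5 (Pearson's r = 0.92, Spearman's rho = 0.94), of locus 1-7 (r = 0.91, rho = 0.89) and of locus 1-8 (r = 0.76, rho = 0.85). Most other loci had negative values. They were lowest at locus 1-13 (r = -0.88, rho = -0.76) and locus 1-2 (r = -0.83, rho = -0.73), followed by loci 1-3 and 1-4, which share their reads (r = -0.81, rho = -0.49), locus 1-1 (r = -0.75, rho = -0.68), locus 1-6 (r = -0.65, rho = -0.65) and locus 1-9 (r = -0.60, rho = -0.51). Loci 1-10 (r = -0.17), 1-11 (-0.02), 2-1 (-0.24) and 1-12 (0.36) had the values closest to 0. Without 5xFAD shRTP801 mouse 8 and WT shCT mouse 11, the 2 mice farthest from the median share of whole reads, r was 0.85 for locus 1-5, 0.81 for 1-7, 0.73 for 1-8, -0.73 for 1-13 and -0.62 for 1-2. After each value was set against the mean of its group, r was 0.93, 0.92, 0.87, -0.89 and -0.88.

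The comparisons between groups ask whether the 5xFAD genotype or the shRNA against RTP801 went with another make-up of the family. In limma, the log2 odds of a read of each kind, species or locus within its family were compared over all 18 mice, with p adjusted over all families of the table. The 4 kinds of read, 3 species and 14 loci of tRNA-Asp-GTC with at least 1% of the family were tested, and loci 3-1 and 4-1 and species 3 fell below this. None of these 21 features passed an adjusted p of 0.05 in any of the 4 comparisons or in the interaction of genotype and treatment. Over all families the share of features called was 0% for kinds of read (of 111) and 0% for species (of 143) in each comparison. For loci (of 164), 3.05% were called between 5xFAD shRTP801 and 5xFAD shCT mice and 1.83% in the interaction, and 0% in the other comparisons. At an unadjusted p of 0.05, 3 of 105 tests of features of tRNA-Asp-GTC were under the threshold in limma (2.86%), against 139 of 2090 tests over all families (6.65%). They were of locus 1-10 between WT shRTP801 and WT shCT, of locus 1-11 between 5xFAD shRTP801 and 5xFAD shCT and of locus 1-10 in the interaction.

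By size, the differences in kinds of read carried wide intervals. Whole reads made up 4.86% ± 1.77 of the family in 5xFAD shCT (SD, n = 3) and 3.30% ± 2.82 in WT shCT mice (SD, n = 5), a log2 change in odds of 2.18 with a 95% interval of -1.78 to 6.15 (limma, adjusted p = 0.771). Without the 3 libraries with over 90% mature reads, the change was 0.50 (limma, adjusted p = 0.749). For 3′ reads the shares were 69.6% ± 5.71 and 68.9% ± 17.8 in the same groups (log2 change -0.54, 95% interval -3.24 to 2.17, limma, adjusted p = 0.932), and without the 3 libraries the change was 0.51. Leaving out WT shCT mouse 5 alone turned it to 0.51 as well. Such intervals hold both no change and large changes in either direction, which these mice do not tell apart. In the 15 libraries, other reads differed most, by 1.06 between 5xFAD shRTP801 and 5xFAD shCT mice and by 1.62 in the interaction (limma, unadjusted p of 0.0185 and 0.0139), and neither passed the adjusted threshold.

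No species differed beyond the spread between mice. tRNA-Asp-GTC-1 was at 84.1% ± 1.97 in 5xFAD shCT (n = 3), 83.0% ± 4.33 in WT shCT (n = 5), 83.7% ± 3.64 in WT shRTP801 (n = 4) and 81.5% ± 5.10 in 5xFAD shRTP801 mice (SD, n = 6). Its log2 change in odds between 5xFAD shCT and WT shCT was 0.07, with a 95% interval of -0.61 to 0.76 (limma, adjusted p = 0.933), and 0.31 without the 3 libraries with over 90% mature reads (limma, adjusted p = 0.497). For tRNA-Asp-GTC-2, the change between 5xFAD shRTP801 and 5xFAD shCT mice was 0.27, with an interval of -0.38 to 0.92 (limma, adjusted p = 0.858). It was 0.43 without the 3 libraries (limma, adjusted p = 0.266), as it was without 5xFAD shRTP801 mouse 7 alone, and without the 3 libraries the interaction was 0.65 with an interval of 0.02 to 1.28 (limma, adjusted p = 0.184). For tRNA-Asp-GTC-4, 5xFAD shCT differed from WT shCT by 0.36, with an interval of -0.58 to 1.29 (limma, adjusted p = 0.805), and by 0.03 without the 3 libraries or without WT shCT mouse 5 alone (limma, adjusted p of 0.912 and 0.98).

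Among the loci, 1-10 and 1-11 had the smallest p-values in limma. Locus 1-10 made up 11.8%, 7.12%, 9.56%, 8.31% and 8.34% of the precursor reads of the family in WT shCT mice 3, 5, 6, 11 and 15. In WT shRTP801 mice 4, 10, 17 and 21 it made up 7.18%, 5.85%, 6.49% and 5.10%. The groups overlapped only through mouse 5 and mouse 4, which both belong to the 3 libraries with over 90% mature reads. The log2 change was -0.59 ± 0.198 (SE), with an unadjusted p = 0.00887 and an adjusted p = 0.817 in limma, and an exact two-sided permutation test of the shares gave an unadjusted p = 0.0238. The change was -0.76 without the 3 libraries (limma, adjusted p = 0.128), and across the settings and single mice left out the adjusted p ran up to 0.997. In the interaction locus 1-10 differed by 0.75 (limma, adjusted p = 0.244), and by 0.98 without the 3 libraries (limma, adjusted p = 0.0771).

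Locus 1-11 made up 17.8%, 15.9% and 16.9% of the precursor reads of the family in 5xFAD shCT mice 1, 16 and 18. In WT shCT mice 3, 5, 6, 11 and 15 it made up 19.1%, 21.7%, 18.5%, 21.1% and 20.1%. The 5xFAD shRTP801 mice ran from 19.3% to 22.8%, with a median of 20.5%. In WT shRTP801 mice 4, 10, 17 and 21 it made up 21.9%, 15.93%, 22.1% and 18.3%, a range that holds that of the 5xFAD shCT mice. Every 5xFAD shCT mouse lay below every WT shCT mouse and below every 5xFAD shRTP801 mouse. In limma the log2 change was -0.31 ± 0.159 (SE) between 5xFAD shCT and WT shCT (adjusted p = 0.423) and 0.38 ± 0.154 between 5xFAD shRTP801 and 5xFAD shCT (adjusted p = 0.418), and the interaction was 0.44 (adjusted p = 0.357). Exact permutation tests of the shares gave unadjusted p of 0.0357 and 0.0119 for these 2 comparisons, where 0.0179 and 0.0119 are the smallest p that the numbers of mice allow. Both comparisons share the 5xFAD shCT mice. Of 96 such exact tests over the 4 kinds, 4 species and 16 loci, 6 gave an unadjusted p under 0.05, 3 of them at the rarely read loci 3-1 and 4-1. In 3 tests the groups did not overlap, 2 of them at locus 1-11 and 1 at locus 4-1, which had 0 to 31 reads per library. Exact tests were not run for other families, so the share of all loci whose groups were apart is not given here. Whether the separation at locus 1-11 is unusual among loci was therefore not tested. By a different measure, the adjusted p of limma, 0% of all loci were called between 5xFAD shCT and WT shCT. Between 5xFAD shRTP801 and 5xFAD shCT 3.05% were called.

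**Figure D5:**
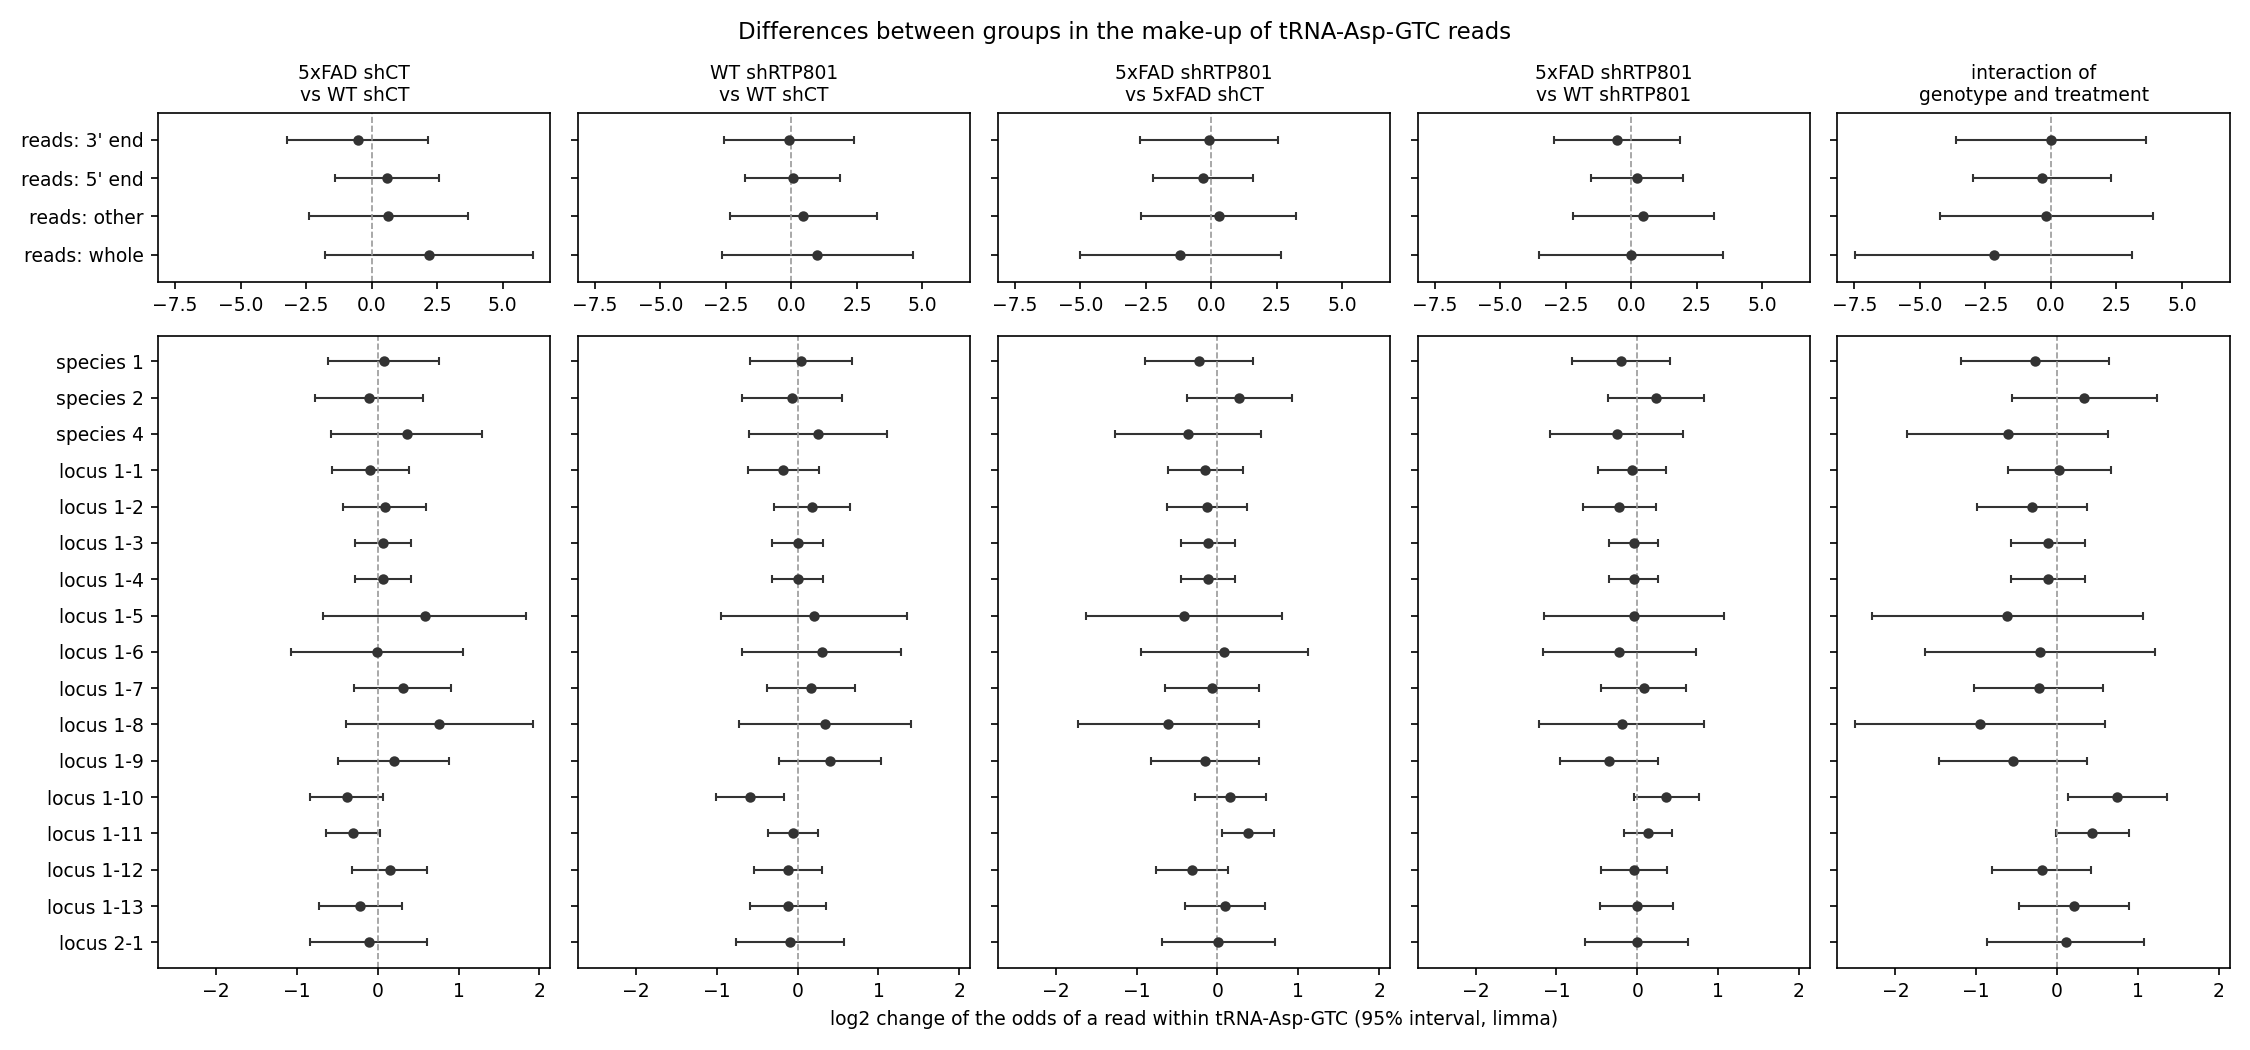
log2 change in the odds of a read within tRNA-Asp-GTC between groups, with 95% intervals from limma over 18 mice, for the 4 kinds of mature read (top, wider axis) and for 3 species and 14 loci (bottom). Intervals of the kinds of read span up to several log2 units, and the intervals of locus 1-10 (WT shRTP801 against WT shCT, and interaction) and of locus 1-11 (5xFAD shRTP801 against 5xFAD shCT) exclude 0 before adjustment.

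Families that share a modification with tRNA-Asp-GTC were tested in the same way. Of the kinds of read, species and loci of the queuosine families tRNA-Asn-GTT, tRNA-His-GTG and tRNA-Tyr-GTA, 0 of 8, 0 of 8 and 0 of 9 passed the adjusted threshold in each comparison. Of those of the DNMT2 targets tRNA-Gly-GCC and tRNA-Val-AAC, 0 of 7 kinds and 0 of 9 species passed, and 2 of 19 loci (10.5%, against 3.05% of all loci) passed between 5xFAD shRTP801 and 5xFAD shCT mice, and 0 in the other comparisons. These were tRNA-Val-AAC-1-2, whose log2 odds within its family were higher by 0.88 (limma, adjusted p = 0.0309), and tRNA-Val-AAC-5-1, whose log2 odds were lower by 0.69 (limma, adjusted p = 0.0496). Both belong to 1 family, where a rise at 1 locus lowers the share of the others. They are therefore not 2 independent results and do not give the level of either precursor. Over all families the smallest adjusted p of this comparison was shared by tRNA-Val-AAC-1-2 and tRNA-Val-CAC-1-1 (-1.16), and that of the interaction, 0.0163 in limma, by tRNA-Met-CAT-3-1 (-4.29), tRNA-Val-CAC-1-1 (-1.70) and tRNA-Thr-CGT-4-1 (2.86). With the mature share of the library as a covariate, 0 loci of any family were called.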

How the data were processed

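Hydro-tRNA-seq of 18 mouse hippocampi was analysed. According to the labels, RNA of 60 to 100 nt was cut from a gel, hydrolysed, sequenced in 50 bp paired-end format and counted with tRAX. The submitters' processing notes name the build mm39, and the aligner is not given in the sources used here. The deposited table holds a normalized signal, that is read numbers which the authors scaled library by library, as its values show. Every value was a whole multiple of the smallest non-zero value of its library (100% of values, tolerance 0.01), so reads were recovered by division. Near-identical copies of other small RNA genes (323) were counted once in library totals, and 13 pre-tRNA loci, 1 of them of tRNA-Asp-GTC, repeated the reads of another locus.

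Within each family with at least 100 reads in every library, log2((reads + 0.5)/(other reads of the family + 0.5)) of each feature with a mean share of at least 1% was compared with limma 3.58.1 (R 4.3.3) over the 4 groups, with Benjamini-Hochberg adjustment over all features and a threshold of 0.05. The size factor cancels in this ratio. Comparisons within mice used sign-flip permutation (100000 resamples, two-sided, Python 3.11.15, scipy 1.17.1). Alternatives were edgeR 4.0.16, other minimum reads, shares and added reads, a variance trend, the mature share as a covariate, another denominator and leaving out mice or the 3 libraries with over 90% mature reads. The procedure was also run on simulated data with known changes. How many of them it recovered is not given here. Nothing says whether mice were handled in batches, and none were found in the labels. Named were all entries of the family, the queuosine and DNMT2 families, the most similar families and the feature with the smallest adjusted p of a comparison with calls. The members and lists were chosen with earlier results of these data known.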

Additional observations from a re-analysis of the deposited data

Results flagged for a closer look

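Of 75 groups of 4 to 6 mice checked over the family's shares, kinds of read, species and loci, 10 had a mouse whose distance to its nearest neighbour took up an unusually large part of the range of the group. Chance gives about 1 in 20 groups, and measures of one library are not independent.

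Of these, 8 belonged to the 3 libraries with over 90% mature reads. In WT shCT mouse 5, other reads made up 0.201% of mature tRNA-Asp-GTC, against 20.98% to 23.1% in the other 4 WT shCT mice. In the same mouse tRNA-Asp-GTC-1 was at 90.6% (others 79.7% to 82.1%), tRNA-Asp-GTC-2 at 8.89% (16.7% to 19.0%) and tRNA-Asp-GTC-4 at 0.418% (1.18% to 1.44%), and locus 1-6 was at 11.2% (2.63% to 4.44%). In 5xFAD shRTP801 mouse 7, tRNA-Asp-GTC-4 was at 0.486% (1.04% to 1.31%) and locus 1-6 at 10.8% (2.18% to 4.86%). In WT shRTP801 mouse 4, locus 1-13 was at 7.01% (4.88% to 5.24%).

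The others were locus 1-2 at 4.89% in 5xFAD shRTP801 mouse 8 (others 7.76% to 9.06%), the mouse with the highest share of whole reads, and locus 1-12 at 5.09% in WT shRTP801 mouse 10 (3.79% to 3.94%).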

How the results depend on the processing

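No feature of tRNA-Asp-GTC passed the adjusted threshold under any setting or with any mouse left out. Over all families, the settings moved the counts of calls. Without the 3 libraries with over 90% mature reads, a choice made after the data were seen, kinds of read gave 6 calls between 5xFAD shRTP801 and 5xFAD shCT, 7 between 5xFAD shRTP801 and WT shRTP801 and 10 in the interaction (0 each with all mice), species gave 10 in the interaction (0 with all mice), and loci gave 1 between 5xFAD shCT and WT shCT (0) and 5 in the interaction (3). The 5 locus calls between 5xFAD shRTP801 and 5xFAD shCT became 0 with a minimum of 20 or of 500 reads, in edgeR and with the mature share as a covariate, and the 3 of the interaction became 1 with a minimum of 500 reads and 0 with that covariate. Leaving out each mouse in turn gave 0 to 1 calls for kinds and 0 to 8 for species in the interaction. For loci it gave 0 to 3 (5xFAD shCT against WT shCT), 0 to 1 (WT shRTP801 against WT shCT), 0 to 6 (5xFAD shRTP801 against 5xFAD shCT), 0 to 1 (5xFAD shRTP801 against WT shRTP801) and 0 to 5 (interaction). The cause was not tested.

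The change of 3′ reads between 5xFAD shCT and WT shCT (log2 -0.54) turned to 0.013 in edgeR, 0.75 with the covariate, 0.51 without the 3 libraries and 0.63 percentage points as a difference of shares (exact permutation test, p = 0.982), and ran from -0.90 to 0.51 with single mice left out. That of tRNA-Asp-GTC-4 (0.36) turned to -0.11 with the covariate, and that of tRNA-Asp-GTC-1 (0.07) ran from -0.039 to 0.31 with single mice left out. Against other mature tRNAs, 3′ reads differed by -0.49 and other reads by 0.41 without the 3 libraries, and against the mean of families by -2.52 and 2.35, while 5′ reads turned to 4.30. Without the 3 libraries, 3 differences that were not past the threshold changed sign: 3′ and 5′ reads against tRNA-His-GTG (-0.019 and 0.22) and 5′ reads against tRNA-Val-AAC (0.049). As a share of all reads in place of the class, mature tRNA-Asp-GTC had 3.52% and 7.02% in WT mice with shCT and with shRTP801, and 5.48% and 5.90% in 5xFAD mice with shCT and with shRTP801, so that the order of the 5xFAD groups was turned, and 4.73% in the last without mouse 7 turned it back. Precursors had 0.0461%, 0.0879%, 0.0527% and 0.103% in the same order, and without WT shCT mouse 5 and 5xFAD shRTP801 mouse 7 the first and the last were 0.0269% and 0.0701%. No paired analysis was possible because each mouse number occurs in 1 group only. The groups of 3 to 6 mice, and 48 reads or more per locus tested, limit what could be detected.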
